A study of Mus musculus with 8 samples.

Results

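Olfr60, Timd2, Ermn, Cd93, Dab2 and Slc15a3 are 6 genes, none of them a cytokine gene, whose signal was among those that fell most in T helper cells without the nuclear receptor RORγt. They were chosen by that fall, so their values in the RORγt comparison are given as a description and support no test. Of 19938 genes with a probe set of their own, 11128 reached the median of all values on at least 2 of the 8 arrays and were tested, the 6 among them. The 6 genes were measured by 7 probe sets that carry 1 symbol, out of 35556 on the array. Dab2 had a second probe set, and the brighter of the pair stood for the gene.

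RORγt is a nuclear receptor that binds DNA and directs naive CD4 T cells to the Th17 fate, in which they make interleukin 17. SRC-3 is a coactivator that nuclear receptors recruit to the genes they regulate. Most of the 6 genes are better known from other cells. Olfr60, Timd2 and Ermn encode an odorant receptor, a receptor of the TIM family of immune cells and a myelin-associated actin-binding protein. Cd93, Dab2 and Slc15a3 encode a lectin-like receptor of endothelial and myeloid cells, a clathrin adaptor and an endolysosomal peptide transporter.

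The data are 8 expression arrays of mouse cells labelled Th17, 1 array per sample and 2 samples in each of 4 groups. All 4 groups were naive CD4 T cells activated through CD3 and CD28 with interleukins 1, 6 and 23 added. The first experiment compared SRC-3-deficient cells, from a source labelled f/f with no Cre named, with cells from SRC-3 wild-type mice. The second compared RORγt-deficient cells, from a source labelled -/-, with cells from RORγt wild-type mice. The labels call the replicates biological but give no age, strain or number of mice, and do not say whether replicates came from separate mice or separate cultures. The p-values therefore cover only the spread between the samples of a group. That spread was pooled over all 4 groups and drawn toward a value common to all genes tested. The median SD of a gene was 0.068 in SRC-3-deficient and 0.074 in SRC-3 wild-type samples. It was 0.044 in RORγt-deficient and 0.046 in RORγt wild-type samples, so the pooled spread can be too small for the SRC-3 comparison. All values are log2 signals, and the number of arrays limits their precision.

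Facts of the whole series bear on the 6 genes as follows. Ncoa3, the gene of SRC-3, gave 11.15 and 10.97 on the SRC-3-deficient arrays against 11.76 and 11.53 in the matching wild type. The groups did not overlap, an order shown by 14.3% of all genes tested. The signal was thus lower but not lost, and SRC-3 protein was not measured here. The transcript of RORγt was not analysed here. Sex moved with genotype: Xist, the RNA that silences an X chromosome in female cells, gave 6.37 and 6.08 on the RORγt-deficient arrays against 12.55 and 12.76 on their wild-type arrays. Eif2s3y, a gene of the Y chromosome, ran the other way (10.47 and 10.48 against 4.84 and 4.63). In the RORγt comparison, sex and genotype cannot be told apart. SRC-3-deficient replicate 1 also had a low Xist signal (7.10), beside 13.60 on replicate 2 and 13.65 and 13.52 on the wild-type arrays. Its Eif2s3y signal was high (11.16), beside 4.87 on replicate 2 and 4.91 and 4.59 on the wild-type arrays. By these genes the SRC-3-deficient group mixed both sexes, while its wild type did not. The part of sex in the SRC-3 differences was not tested. All 7 measured T cell markers passed the filter, and their mean signal lay between 12.62 and 12.82 on the 8 arrays.

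Without RORγt, the 6 genes fell to between 0.114 and 0.271 of their wild-type level. Both deficient arrays lay below both wild-type arrays for 6 of 6, and all 6 passed an adjusted p of 0.05 downwards in the fit across all genes. Among all genes tested, 34.2% showed that order and 9.37% passed that threshold downwards, and since the rule used this contrast nothing is read from the counts. The median log2 difference of the 6 was −2.27, beside 0.00 for all genes. A lower signal in a bulk culture can come from fewer cells of a type or from less RNA per cell, and these cannot be told apart.

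Olfr60 (probe set 10568956, chromosome 7) encodes an odorant receptor, a G protein-coupled receptor of the family that olfactory neurons use to detect odorants. Olfr60 gave log2 signals of 5.71 and 5.94 without RORγt, against 8.81 and 9.11 on the wild-type arrays (5.83 ± 0.16 and 8.96 ± 0.21, SD, n = 2 each). The deficient level was 0.114 of the wild-type level. The SRC-3 experiment, which the choice of genes did not use, gave signals of 8.92 and 9.17 on the deficient and 9.63 and 9.53 on the wild-type arrays. All 6 arrays with intact RORγt thus lay at least at 8.81, and the RORγt-deficient pair stood alone.

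Timd2 (probe set 10385455, chromosome 11) encodes TIM-2, a cell surface receptor of rodent immune cells that binds H-ferritin and semaphorin 4A. It gave 7.60 and 7.33 on the RORγt-deficient arrays, against 10.02 and 9.65 on the wild-type arrays (7.46 ± 0.19 and 9.84 ± 0.26, SD, n = 2 each). The deficient level was 0.193 of the wild-type level. In the SRC-3 experiment the signals were 8.75 and 9.30 (deficient) and 9.18 and 8.65 (wild type), and the groups overlapped. These 4 arrays lay between the RORγt-deficient and the RORγt wild-type pair.

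Cd93 (probe set 10488382, chromosome 2) encodes a transmembrane glycoprotein with a C-type lectin-like domain, known from endothelium, myeloid cells and early B cells. Cd93 gave 7.04 and 6.97 in the RORγt-deficient cultures, against 9.16 and 9.40 on the wild-type arrays (7.01 ± 0.04 and 9.28 ± 0.17, SD, n = 2 each). The deficient level was 0.207 of the wild-type level. In the SRC-3 experiment it was low in every culture, at 6.09 and 6.08 without SRC-3 and 6.29 and 6.22 in wild type. Cd93 therefore passed the filter through the RORγt wild-type arrays alone, the group where it was high. Of the 6 genes it was the only one whose RORγt-deficient arrays lay above all 4 arrays of the SRC-3 experiment. For the other 5 they lay below all 4.

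Ermn (probe set 10482795, chromosome 2) encodes ermin, an actin-binding protein known from the myelin of oligodendrocytes. It gave 8.13 and 7.95 on the RORγt-deficient arrays, against 10.36 and 10.26 on the wild-type arrays (8.04 ± 0.13 and 10.31 ± 0.08, SD, n = 2 each). The deficient level was 0.207 of the wild-type level. In the SRC-3 experiment Ermn gave 10.10 and 10.36 in deficient and 10.14 and 9.87 in wild-type cells. The 6 arrays with intact RORγt lay between 9.87 and 10.36, and the RORγt-deficient arrays lay apart below them.

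Dab2 (probe set 10422728, chromosome 15) encodes an adaptor that links receptors of the LDL receptor family to clathrin-coated pits. It gave 7.68 and 7.80 on the RORγt-deficient arrays, against 9.91 and 9.73 on the wild-type arrays (7.74 ± 0.09 and 9.82 ± 0.13, SD, n = 2 each). The deficient level was 0.237 of the wild-type level. The SRC-3 experiment gave 8.39 and 8.84 in deficient and 8.96 and 9.14 in wild-type cells, so its 4 arrays again lay between the RORγt groups. The second probe set (10422744) stayed between 4.76 and 5.11 on all 8 arrays and differed by 0.03 between RORγt-deficient and wild-type cells.

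Slc15a3 (probe set 10461558, chromosome 19) encodes a proton-coupled transporter of histidine and small peptides in endolysosomal membranes. It gave 9.83 and 9.57 on the RORγt-deficient arrays, against 11.69 and 11.47 on the wild-type arrays (9.70 ± 0.19 and 11.58 ± 0.16, SD, n = 2 each). The deficient level was 0.271 of the wild-type level. In the SRC-3 experiment it gave 11.11 and 10.76 in deficient and 11.23 and 10.78 in wild-type cells, and the groups overlapped. On both RORγt-deficient arrays Slc15a3 and Ermn stayed above the filter value of 7.85, while the other 4 genes lay below it.

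**Figure D1:**
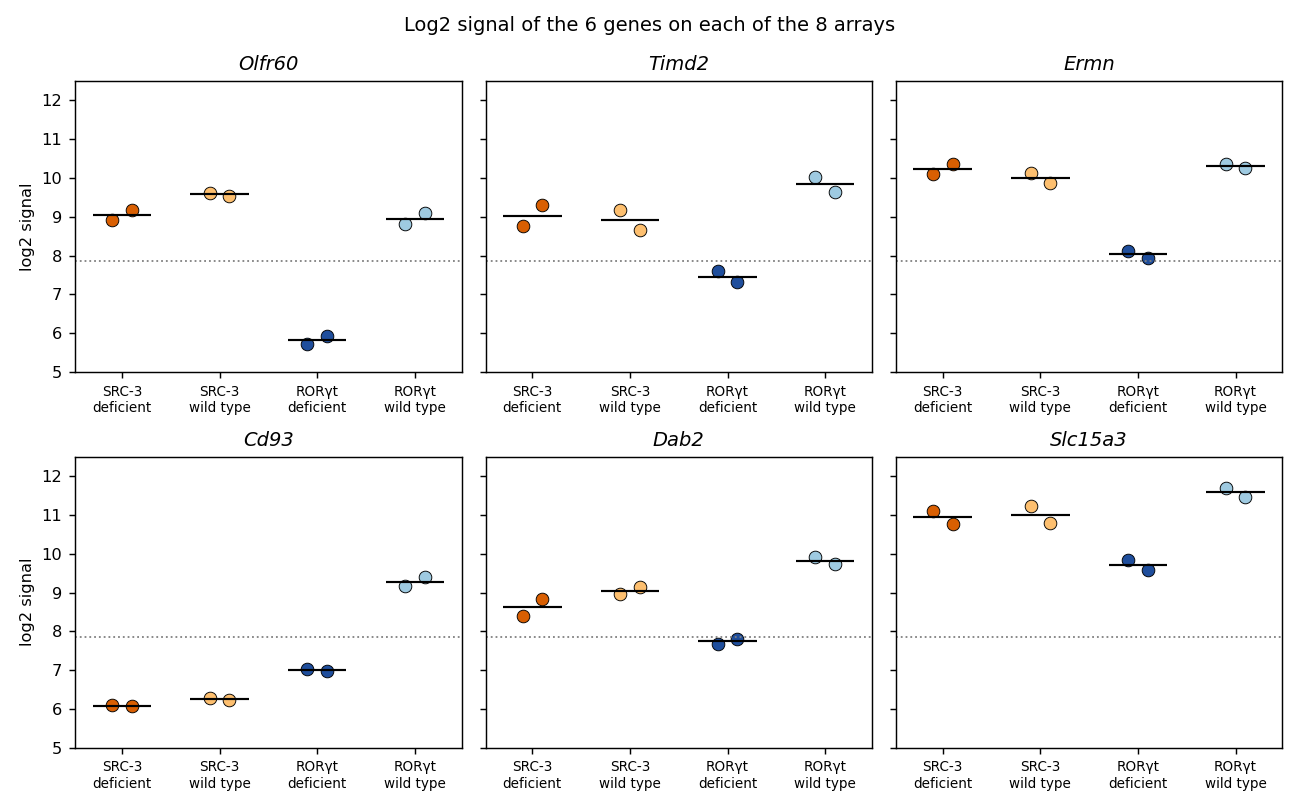
Log2 signal of the 6 genes (y axis) in the 4 groups (x axis), 1 point per array, with the group mean as a bar and the median of all values (7.85) dotted. Olfr60 falls to 5.71 and 5.94 without RORγt, and Cd93 is above the dotted line on the RORγt wild-type arrays alone.

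In the order of RORγt falls, with Xist first, the members held places 5 to 9 and place 12. The genes next above Slc15a3 that are not among the 6 were Il23r (log2 difference −3.23), Vax2 (−2.04) and Cysltr2 (−1.94), and the next below were Gap43 (−1.73), Lilr4b (−1.64) and Ccr6 (−1.59). The fall of Slc15a3 itself was −1.88, so the 6 genes were picked from a continuous range.

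The starts of the genes were set beside one another as a description. The 6 genes were each chosen by a fall in the RORγt comparison, and a control shared by them was not tested. RefSeq (GRCm38.p6) windows of 250 bases upstream of the annotated start were at hand for 4 of the genes, 6 windows in all. The first window of each is given 5′ to 3′, with capitals for a match to the STAT motif named below.
Olfr60, chr7:140345988-140346237, minus strand: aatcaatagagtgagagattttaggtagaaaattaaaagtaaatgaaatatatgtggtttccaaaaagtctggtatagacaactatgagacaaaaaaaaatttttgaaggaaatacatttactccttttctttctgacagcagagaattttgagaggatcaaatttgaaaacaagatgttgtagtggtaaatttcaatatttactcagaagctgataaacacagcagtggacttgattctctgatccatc
Timd2, chr11:46707105-46707354, minus strand: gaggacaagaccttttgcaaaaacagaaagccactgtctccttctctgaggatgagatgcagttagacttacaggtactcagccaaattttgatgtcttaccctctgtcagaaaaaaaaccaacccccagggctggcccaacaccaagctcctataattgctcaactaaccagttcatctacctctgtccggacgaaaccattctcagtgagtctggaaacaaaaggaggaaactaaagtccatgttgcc
Ermn, chr2:58052865-58053114, minus strand: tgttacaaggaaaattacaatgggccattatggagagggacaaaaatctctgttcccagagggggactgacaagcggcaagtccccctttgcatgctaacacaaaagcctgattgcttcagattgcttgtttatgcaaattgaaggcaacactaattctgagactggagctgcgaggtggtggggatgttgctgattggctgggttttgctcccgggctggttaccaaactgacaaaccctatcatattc
Dab2, chr15:6299539-6299788, plus strand: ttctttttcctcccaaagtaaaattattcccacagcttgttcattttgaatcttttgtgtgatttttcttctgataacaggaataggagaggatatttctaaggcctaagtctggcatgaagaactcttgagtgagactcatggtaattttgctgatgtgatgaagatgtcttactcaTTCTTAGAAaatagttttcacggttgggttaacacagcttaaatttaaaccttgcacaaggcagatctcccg
The RORγt half-site AGGTCA and the related GGGTCA, searched on both strands, occurred in none of the 6 windows. They occur in 14.0% and 11.6% of the 32851 windows of all genes. The STAT motif TTCNNNGAA, held by 7.02% of all windows, matched once, in the first Dab2 window, 72 to 64 bases before the start. The AP-1 motif TGANTCA (6.75% of all windows) had no match. A match is a description of letters and not a binding site, and a missing match says only that these letters are not in these windows. The GC content was 30.4% in the Olfr60 window and 47.2% in that of Ermn, 45.6% and 42.4% in the windows of Timd2, and 36.8% and 60.0% in those of Dab2, where the median of all windows was 52.4%. The second Dab2 window thus lay above the median and the other 5 below it.

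The SRC-3 comparison asks which transcripts differ in the cells labelled SRC-3-deficient. The rule that chose the 6 genes did not use this comparison, although Cd93 was tested only because its RORγt wild-type arrays passed the filter. None of the 6 passed the limma test at an adjusted p of 0.05, where 0.225% of all genes did, and 2 of the 6 were lower at an unadjusted p under 0.05, beside 4.33% of all genes. The log2 difference was below 0 in 4 of the 6 and in 42.8% of all genes. The median log2 difference of the 6 was −0.12, beside 0.02 for all genes. Both deficient arrays lay below both wild-type arrays for Olfr60, Dab2 and Cd93, an order shown by 14.3% of all genes, and the groups overlapped for Timd2, Ermn and Slc15a3.

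Olfr60 had the largest difference of the 6, with 9.05 ± 0.18 in SRC-3-deficient against 9.58 ± 0.07 in wild-type cells (SD, n = 2 each). Its log2 fold change was −0.53 (SE 0.13, 95% interval −0.83 to −0.23), a ratio of 0.693, with an unadjusted limma p of 0.00397 and an adjusted p of 0.160. Dab2 followed with 8.62 ± 0.32 against 9.05 ± 0.12, a log2 fold change of −0.43 (SE 0.15, interval −0.77 to −0.09, limma adjusted p = 0.296). Both intervals lie below 0 before adjustment, and neither difference passed in this fit after adjustment over all genes. Fitted to the 4 arrays of the SRC-3 experiment alone, limma gave adjusted p = 0.429 for Olfr60 and 0.669 for Dab2. Both sizes leaned on SRC-3-deficient replicate 1, the array with the low Xist signal. Without it the log2 fold changes were −0.41 (Olfr60) and −0.21 (Dab2), and without replicate 2 they were −0.65 and −0.66.

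For the other 4 genes the intervals of the SRC-3 difference include 0. Cd93 gave −0.17 (interval −0.36 to 0.02, limma adjusted p = 0.447), at a signal that was under the filter in all 4 cultures. Slc15a3 gave −0.07 (−0.48 to 0.35, adjusted p = 0.930). Timd2 gave 0.11 (−0.43 to 0.66, adjusted p = 0.907) and Ermn 0.22 (−0.06 to 0.51, adjusted p = 0.498). The sign for Timd2 and Slc15a3 turned when an array was left out: Timd2 gave −0.16 without SRC-3-deficient replicate 2 and −0.15 without wild-type replicate 2, and Slc15a3 gave 0.11 and 0.15 without SRC-3-deficient replicate 2 and wild-type replicate 1.

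**Figure D2:**
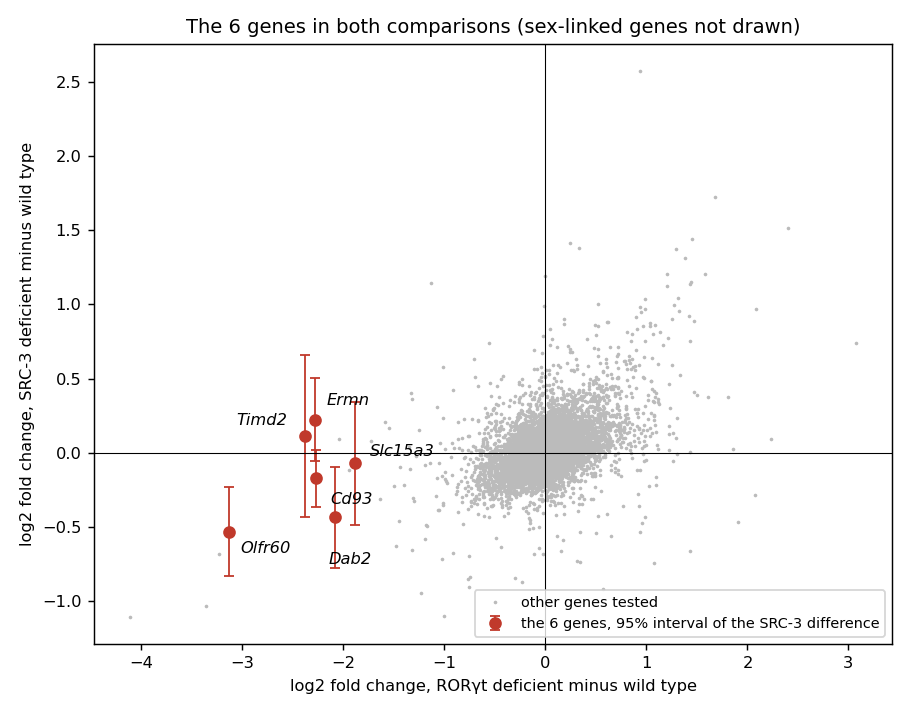
Log2 fold change without RORγt (x axis) and without SRC-3 (y axis) for all genes tested (grey) and the 6 genes (red, with the 95% interval of the SRC-3 difference). The 6 genes lie between −3.13 and −1.88 on the x axis, where they were chosen, and between −0.53 and 0.22 on the y axis.

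The wild-type cultures of the 2 experiments differed to unlike degrees for these genes, most for Cd93. Wild type and experiment cannot be told apart in these differences. The RORγt wild-type arrays also entered the choice of the genes, so these differences are a description. Cd93 was 3.02 log2 units higher in RORγt wild type (9.16 and 9.40) than in SRC-3 wild type (6.29 and 6.22), where its signal was under the filter value and was not shown to be above background. Timd2 was higher by 0.92, Dab2 by 0.77, Slc15a3 by 0.58 and Ermn by 0.31, while Olfr60 was lower in the RORγt wild type (−0.62). The median size of this difference over all genes was 0.27. A difference at least as large as that of Ermn was shown by 45% of all genes. The share was 18.2% for Slc15a3, 15.4% for Olfr60, 8.72% for Dab2 and 5.02% for Timd2.

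**Figure D3:**
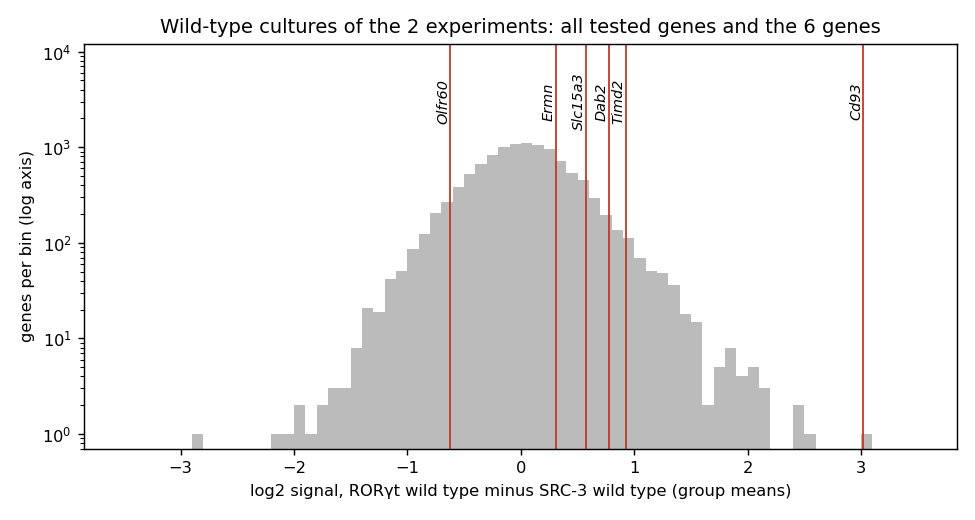
Histogram over all genes tested of the log2 signal in RORγt wild type minus that in SRC-3 wild type (x axis; group means), with the number of genes per bin on a log axis (y axis). The red lines mark the 6 genes: Cd93 is at the far right at 3.02, and the others lie between −0.62 and 0.92.

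The genes whose pattern over the 8 arrays was most like each member were found by the root mean square difference of signals after each gene was centred on its own mean. All points of such a pattern share the arrays, and the large RORγt difference carries much of the likeness. Olfr60 was nearest to Il23r, which encodes a chain of the interleukin 23 receptor (difference 0.18), followed at a distance by Ermn (0.65) and Il17f (0.74). Il23r gave 8.28 and 8.08 on RORγt-deficient and 11.47 and 11.35 on their wild-type arrays, and 11.03 and 11.47 without SRC-3 against 11.93 and 11.93 in that wild type. It thus shared with Olfr60 the lower values without SRC-3 and the high level in SRC-3 wild type. Neither SRC-3 difference passed (limma adjusted p = 0.160 for Olfr60 and 0.108 for Il23r).

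Timd2, Dab2 and Slc15a3 had near neighbours in common. The homeobox gene Vax2 was among the 3 nearest of each, at 0.20 (Timd2), 0.25 (Dab2) and 0.21 (Slc15a3). Slc15a3 was nearest to Ccr6 (0.16), the gene of a chemokine receptor of Th17 cells, with Lilrb4a (0.24) after Vax2. Dab2 was nearest to Ltb4r1 (0.25), a leukotriene B4 receptor gene, with Lum (0.25) after Vax2. The nearest gene to Ermn was Gap43 (0.25), which encodes a growth cone protein of neurons, before Timd2 (0.34) and Slc15a3 (0.39). Cd93 had no close match: Stra6 (0.48), Lif (0.53) and Hilpda (0.57) came nearest, and all 3 were also higher in RORγt wild type than in both SRC-3 groups.

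Olfr60 lies in a cluster of odorant receptor genes on chromosome 7, and the genes beside it were examined after its value had been seen. Of the 5 protein-coding genes on either side in RefSeq order, 9 had a probe set of their own and 5 passed the filter. Of these 5, 4 fell without RORγt (limma): Olfr527 by 0.62 (SE 0.09, adjusted p = 0.00451), Olfr530 by 0.80 (0.0113), Olfr525 by 0.69 (0.00790) and Olfr524 by 0.50 (0.00556) on the log2 scale. The receptor gene Cd163l1, the other gene tested there, gave −0.14 (adjusted p = 0.154). Among all genes tested, 9.37% fell at this threshold. Olfr525 and Olfr530 passed the filter only through the RORγt wild-type arrays, where they were high, so nothing is read from the count of neighbours.

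Values of the neighbours show the size of these falls. Olfr527 gave 7.64 and 7.53 on RORγt-deficient arrays against 8.31 and 8.09 on wild-type arrays. Olfr530 gave 7.39 and 7.83 against 8.43 and 8.39. Neither pair overlapped, and the falls were far smaller than that of Olfr60. In the SRC-3 experiment none of the 4 passed (log2 fold changes between −0.11 and 0.04).

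Olfr60 also contributes to 3 probe sets that the platform table gives to 8 or 9 odorant receptor genes at once. Probe set 10558655 gave 8.33 and 8.41 without RORγt against 9.76 and 9.97 in wild type, without overlap. The other two (10558649 and 10558657) differed by −0.69 and −0.68. Near-identical receptor genes can share probes, so these values and those of the neighbouring genes are uncertain as to the gene they measure. The platform table gives probe set 10568956 to Olfr60 alone, but its probe sequences were not checked, so the doubt extends to it. The part of shared probes was not tested.

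Across the family, 1026 other Olfr genes had a probe set of their own and 25 of them passed the filter. In the RORγt comparison 4 of the 25 fell, beside 9.37% of all genes tested, 0 rose and 21 did not pass (median log2 fold change −0.10, beside 0.00 for all genes). Olfr525 and Olfr530 passed the filter only through the RORγt wild-type arrays, where they were high, so the filter favoured their fall and the count supports nothing about the family. The 4 that fell were the neighbours named above. The count was 2 without RORγt-deficient replicate 1 (Olfr524 and Olfr530 lost, adjusted p = 0.0504 and 0.0622) and 2 without wild-type replicate 2 (Olfr525 and Olfr530 lost, 0.0656 and 0.0701), and Olfr530 was also lost without wild-type replicate 1 (0.0768). In the SRC-3 comparison 0 of the 25 passed by limma, and 1 had an unadjusted p under 0.05. Of the 3 genes of olfactory signal transduction that passed the filter, Adcy3, Ric8b and Gnal, none passed in either comparison (limma adjusted p at least 0.0673). An unadjusted p under 0.05 was shown by 2 of them in the RORγt comparison. Of all 11128 genes tested, 3847 showed this in the RORγt and 1394 in the SRC-3 comparison.

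The neighbours of the other 5 genes were counted in the same way. Of 50 neighbours 45 were measured and 22 tested, of which 3 fell and 1 rose without RORγt, a share near the 19.4% of all genes tested that passed in either direction. Gpd2, near Ermn, fell by 0.48 (limma adjusted p = 0.00421), and Fyb, an adaptor gene near Dab2, rose by 0.57 (0.00265). Tmem132a and Prpf19, near Slc15a3, fell by 0.30 and 0.25 (0.0294 and 0.0376), and both calls were lost without any 1 of the 4 RORγt arrays (adjusted p between 0.0789 and 0.160). Of the neighbours of Timd2 and Cd93, 2 and 3 were tested and none passed.

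**Figure D4:**
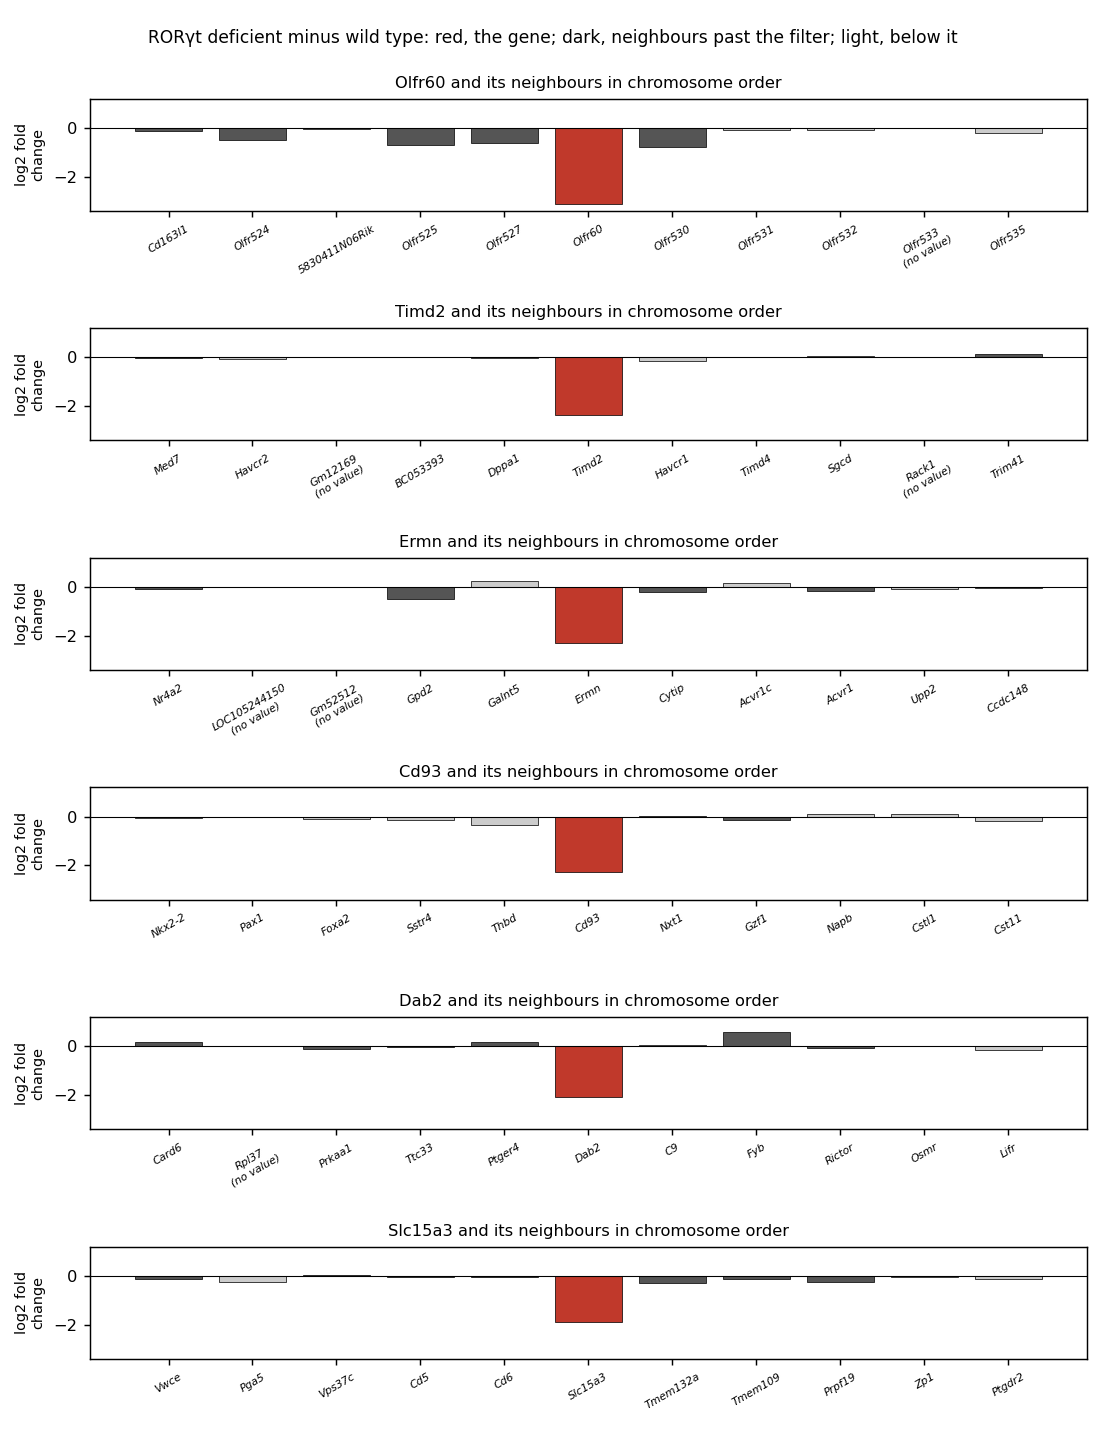
Log2 fold change of RORγt-deficient minus wild-type cells (y axis, bars from 0) for each of the 6 genes (red) and the 5 protein-coding genes on either side in chromosome order (x axis). Dark bars passed the filter and light bars did not, and genes marked "no value" had no probe set of their own. Around Olfr60, Olfr524, Olfr525, Olfr527 and Olfr530 fell by 0.50 to 0.80.

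The relatives and partners of the 6 proteins were taken from lists of related genes, and for scale 19.4% of all genes tested passed in either direction without RORγt. The TIM genes next to Timd2 were dim: Havcr1, Havcr2 and Timd4 stayed under the filter on all 8 arrays, with signals between 5.65 and 7.24. All 3 tested ligand genes of TIM receptors changed without RORγt by limma. Sema4a, the gene of semaphorin 4A, fell by 0.67 (adjusted p = 0.00905) and Fth1, that of H-ferritin, by 0.29 (0.0133), while Lgals9, the gene of galectin 9, rose by 0.37 (0.0359). Each of these calls was lost without RORγt-deficient replicate 1, wild-type replicate 1 or wild-type replicate 2 (adjusted p between 0.0503 and 0.207), and that of Fth1 also without deficient replicate 2 (0.0688). In the SRC-3 comparison 0 of the 3 passed by limma, and 1 had an unadjusted p under 0.05, beside 1394 of all 11128 genes.

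Of the relatives of Cd93 in its lectin family, Thbd and Clec14a stayed under the filter, and Cd248 gave −0.02 without RORγt (limma adjusted p = 0.890). Igfbp7, which encodes a secreted binding partner of CD93 in endothelium, gave 9.52 and 9.61 on RORγt-deficient arrays against 10.81 and 10.58 on wild-type arrays. It fell by 1.13 on the log2 scale (limma adjusted p = 0.0126), a call lost without any 1 of those 4 arrays (0.0531 to 0.0908). Without SRC-3 it gave 10.66 and 10.35 against 9.72 and 9.01 in wild type (1.14, adjusted p = 0.0905).

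Among 21 tested clathrin adaptors and cargo receptors, the partners of Dab2, 2 fell, 1 rose and 18 did not pass without RORγt (median 0.00, as for all genes). The receptor genes Lrp1 and Lrp8 fell by 0.46 and 0.42 (limma adjusted p = 0.00706 and 0.00935) and Fcho2, an organiser of coated pits, rose by 0.52 (0.0265). Without RORγt-deficient replicate 1 all 3 were lost (adjusted p = 0.0622, 0.0698 and 0.162). Without wild-type replicate 2 Lrp1 and Lrp8 were lost (0.0539 and 0.0761), without wild-type replicate 1 Lrp1 and Fcho2 (0.0526 and 0.150), and without deficient replicate 2 Fcho2 (0.0695). The adaptor gene most like Dab2, Dab1, was under the filter. Of 7 ERM proteins and actin linkers, to which ermin is related, none passed in either comparison by limma. An unadjusted p under 0.05 was shown by 3 in the RORγt and 1 in the SRC-3 comparison, beside 3847 and 1394 of all 11128 genes. Nothing is read from these counts.

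Among 7 tested genes of SLC15 transport and endolysosomal sensing, 1 fell, 1 rose and 5 did not pass without RORγt. Nod2, the gene of the sensor of muramyl dipeptide, a ligand that SLC15A3 is known to carry, fell by 0.42 (limma adjusted p = 0.00450), with signals of 7.65 and 7.71 without RORγt against 8.08 and 8.12 in wild type. The interferon regulatory factor gene Irf7 rose by 1.13 (0.0406), a call lost without RORγt-deficient replicate 1 or either wild-type array (0.149 to 0.231). Slc15a4, another histidine and peptide transporter gene of endolysosomes, gave 9.77 and 9.78 against 9.72 and 9.72 (adjusted p = 0.526). In the SRC-3 comparison none of the tested relatives of the 6 genes passed by limma.

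Markers of cell types in which some of the 6 genes are better known were examined beside them. Of 14 myeloid markers, 13 were under the filter on all 8 arrays, Csf1r, Adgre1, Itgam and Cd14 among them. The mean of the list was 6.74 to 6.77 on RORγt-deficient and 6.79 to 6.82 on wild-type arrays, and 6.78 to 6.79 without SRC-3 and 6.74 to 6.76 in that wild type. Cd68, the marker above the filter, gave 9.79 and 10.07 without RORγt against 10.33 and 10.26 in wild type (limma adjusted p = 0.0834).

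Most endothelial and oligodendrocyte markers were also dim. Of 7 endothelial markers 6 were under the filter on all arrays, and Pecam1, also a T cell gene, rose without RORγt (0.64, limma adjusted p = 0.00550). Of 7 oligodendrocyte markers 5 were under the filter, Mog, Mag and Mobp among them. Cnp, which was bright at 12.34 and 12.36 without RORγt against 11.76 and 11.67 in wild type, rose (0.64, limma adjusted p = 0.00145). Mbp gave 8.99 to 9.24 on the 8 arrays and did not pass (0.08, adjusted p = 0.337). The mean of this list was 7.99 to 8.20, above the filter value. Of 6 B cell markers 4 were under it, while Ebf1 fell by 1.33 (0.0131), a call lost without any 1 of the 4 RORγt arrays (0.0631 to 0.0923). The B cell list averaged 7.23 and 7.33 on RORγt-deficient against 7.59 and 7.47 on wild-type arrays, and most of that gap came from Ebf1. The other 5 B cell markers gave log2 differences on both sides of 0, between −0.21 (Cd79b) and 0.09 (Ms4a1). Of 6 NK cell markers 5 were under the filter, and Nkg7 gave 1.10 (adjusted p = 0.0512). Other T cell states in the cultures, and their part in the falls of the 6 genes, were not tested.

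**Figure D5:**
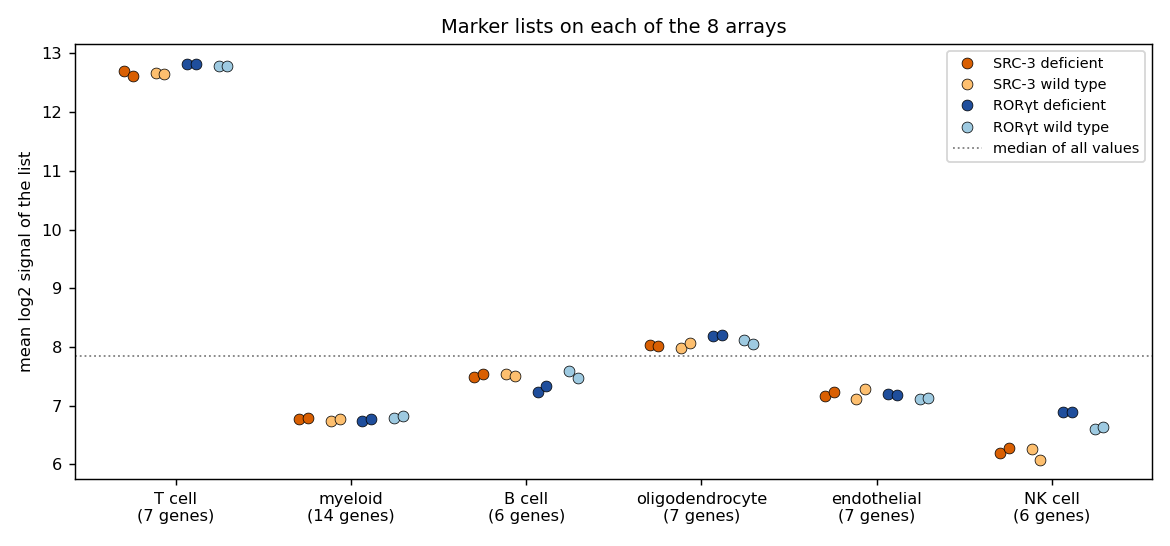
Mean log2 signal of 6 marker lists (x axis) on each of the 8 arrays (y axis; 1 point per array, coloured by group), with the median of all values dotted. T cell markers lie at 12.62 to 12.82 on every array and myeloid markers at 6.74 to 6.82.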

How the data were processed

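Total RNA was measured on 8 Affymetrix arrays, 1 colour and 1 array per sample. The authors' deposited values are on the log2 scale. RMA and Affymetrix Expression Console are named for them in the submitters' processing notes. They were used without a new normalization. Of 35556 probe sets, 21789 had 1 symbol in the platform table, 1621 had several and 12146 had none. No symbol changed when looked up in RefSeq by gene ID, and 91 IDs were not in it. Probe sets under 7.85, the median of all values, on all or all but 1 of the arrays were left out, and the one with the highest mean stood for its gene. Group means were fitted to 8 arrays with limma 3.58.1 in R 4.3.3 (4 residual and 3.53 prior degrees of freedom), two-sided, with Benjamini-Hochberg adjustment over 11128 genes and a threshold of 0.05. The fit was run on simulated data in which all genes of an experiment had the same spread. Real genes differ in spread, so that run checks the code and not the power in these data. The members and the lists of related genes and markers were chosen with earlier results of these data known. Ncoa3, Xist and Eif2s3y served as checks of the labels. Named are all members, the 3 genes most like each, the 3 genes on either side of Slc15a3 in the order of falls, and up to 4 genes per list by smallest p in either comparison. The dim relatives, dim markers and chromosome neighbours named, Slc15a4, Slc15a2 and the family genes Thbd, Clec14a and Dab1 were named after their values were seen. Alternatives were another normalization, filters, single probe sets, fewer arrays, another prior and the replicate number as a block. No sample was dropped or imputed in the values given. Coordinates are those of RefSeq windows.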

Additional observations from a re-analysis of the deposited data

Results flagged for a closer look

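Only the genes picked from the lists, up to 4 per list by smallest p, were examined for opposite orders in the 2 comparisons. In 4 of them both deficient arrays lay on 1 side of both wild-type arrays in the RORγt comparison and on the opposite side in the SRC-3 comparison. Among all genes tested, 34.2% were lower without overlap in the RORγt and 14.3% in the SRC-3 comparison. The share of all genes with opposite orders was not counted, so nothing is read from the 4. For Igfbp7, a gene of a CD93 ligand, the RORγt effect minus the SRC-3 effect was −2.27 on the log2 scale (SE 0.31, limma adjusted p = 0.0191). For the myeloid marker Cd68 it was −0.68 (adjusted p = 0.114), for Slc9a3r1, a linker of ERM proteins, 0.33 (0.171) and for Tlr9 0.27 (0.233), and these 3 did not pass.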

How the results depend on the processing

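The 6 genes were chosen by their falls without RORγt, so the direction of these falls under the alternatives supports nothing. Only another normalization or leaving out a RORγt array could change their size, and the other alternatives returned the same values. Where the gene passed the filter, Olfr60 lay between −3.28 and −2.98 and Slc15a3 between −2.01 and −1.75. In the SRC-3 comparison 0 of the 6 passed under every alternative except the replicate block, where limma called 1, Olfr60 (−0.53, adjusted p = 0.0329). Labels do not say that equal replicate numbers were paired, and their deviations correlated at 0.54 in the SRC-3 and 0.00 in the RORγt experiment. The lowest adjusted p of the 6 was otherwise between 0.109 and 0.485. The stricter filter (9.78) left Ermn and Slc15a3. Without a single array, signs turned for Timd2 (−0.16 and −0.15, over a range of −0.16 to 0.39) and Slc15a3 (0.11 and 0.15, over a range of −0.29 to 0.15). The 25 calls of the SRC-3 comparison became 14 with the stricter filter, 0 by limma with its 4 arrays alone (827 at an unadjusted p under 0.05), 47 with an intensity trend, 301 with the replicate block and 0 to 61 without 1 array (limma; 0 without SRC-3 wild-type replicate 2, with 1457 unadjusted, 10 without SRC-3-deficient replicate 1, 12 without either RORγt-deficient array and 61 without SRC-3 wild-type replicate 1). The 2157 RORγt calls became 3389 with 4 arrays alone, 3411 with the replicate block and 486 to 2539 without 1 array (486 and 1001 without RORγt-deficient replicates 1 and 2, 626 and 558 without wild-type replicates 1 and 2). The 4 Olfr neighbours, a result chosen after seeing the data, became 7 Olfr genes of 1026 without the filter, 0 of 2 with the stricter one (limma, 0 unadjusted) and 2 to 5 without 1 array. Without RORγt, Olfr60, Timd2, Cd93 and Dab2 lay under the filter value, and signal over background was not analysed here.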

Other observations

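Slc15a2, a peptide transporter gene of the Slc15a3 family, was named after its values were seen. Without RORγt it gave 6.21 and 8.85, against 7.84 and 9.25 in wild type, so the replicates of a group differed by more than the group means. In the SRC-3 experiment its values lay close together, at 9.33 and 9.43 without SRC-3 against 8.81 and 8.80 in wild type.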
